A study of Mus musculus with 16 samples.

Results

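The 32 genes described here encode the chaperones and folding machinery of the endoplasmic reticulum (ER), with the ER stress sensors, the degradation components and the translocon subunits that work beside them. They were chosen by name, Ero1a and Ero1b standing on the array under their former symbols Ero1l and Ero1lb. All 32 were measured, among 19938 genes in the series. Pdia4 and Dnajc3 had 2 probe sets each and Sec61b had 3, and the probe set with the highest mean over the 16 arrays was used for them.

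Livers of male mice aged 4 months were hybridised to Affymetrix Mouse Gene 1.0 ST arrays, 4 arrays in each of 4 groups. The groups were unfasted heterozygotes (Mut +/-;TgINS-MCK-Mut), heterozygotes fasted for 12 hours, unfasted mutants (Mut -/- ;TgINS-MCK-Mut) and mutants fasted for 8 to 12 hours. Mut, now Mmut, encodes methylmalonyl-CoA mutase, the mitochondrial enzyme lost in methylmalonic acidemia, and every animal, controls included, carried the TgINS-MCK-Mut transgene, whose muscle creatine kinase promoter directs the enzyme to muscle. The fast was not matched between the genotypes. In the fasted comparison and in the interaction, genotype and length of fast therefore cannot be told apart. Heterozygotes served as controls, and no wild type was analysed here. The p-values rest on a spread between arrays within groups that, for each gene, was estimated from all 4 groups together. The study design describes the 4 arrays of a group as separate mice.

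Values are RMA expression values on the log2 scale, and a difference of 1 log2 unit is a doubling of the array signal. The arrays had near-equal medians, and arrays of one group correlated at 0.985 to 0.996. In this text "called" means an adjusted p under 0.05 in limma, Benjamini-Hochberg adjusted over all 19938 genes. Mmut checked the labels: it was lower in the mutants by −1.78 ± 0.11 (SE, adjusted p = 7.5e-07) unfasted and −1.80 ± 0.11 (adjusted p = 3.6e-07) fasted, with no overlap between genotypes. In whole liver, fewer cells of a type and less RNA per cell cannot be told apart.

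One array stood apart. On unfasted mutant replicate 1, 16 of the 17 measured markers of acinar cells of the pancreas, which secrete digestive enzymes and are rich in ER, were higher than on every other array. Their mean was 10.74 there and 6.60 to 6.81 on the other 15 arrays, and Cpa1, a pancreatic carboxypeptidase, read 12.29 against 6.84 to 7.22. On that array 24 of the 32 ER genes were the highest of the 4 unfasted mutants, a position it held for 22.06% of all genes. For the comparisons that use the unfasted mutants, the counts, the medians and the printed differences of the 32 genes are therefore given with and without it.

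Proteins destined for secretion enter the ER through the Sec61 translocon, are bound by chaperones such as BiP (Hspa5), and form disulfide bonds with the help of protein disulfide isomerases and Ero1 oxidases. Proteins that fail to fold are sent back to the cytosol and degraded (ER-associated degradation, ERAD). When unfolded proteins accumulate, the sensors IRE1 (Ern1), ATF6 and PERK start the unfolded protein response: IRE1 splices Xbp1 mRNA, ATF6 is cut to an active fragment, and both raise transcription of chaperone and ERAD genes. Hepatocytes secrete most plasma proteins and so hold a large ER.

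ATF6 acts through the ER stress element (ERSE), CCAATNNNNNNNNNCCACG, in which CCAAT binds NF-Y. The related ERSE-II is ATTGGNCCACG. For the UPRE core bound by XBP1, only the letters TGACGTGG and TGACGTGT were searched. Both strands of the 250 bases before each gene start were searched in RefSeq promoters (build GRCm38.p6), which were found for 27 of the 32 genes. The entries for Derl1, Hyou1, Manf, Atf6 and Sec61a1 were not analysed here. An exact ERSE stood in 10 of the 27 promoters (37%), against 35 of 27025 promoters of all genes (0.13%). ERSE-II stood in Herpud1 alone, 1 of 27 (3.7%), against 10 of all genes (0.037%). These UPRE letters were in 0 of 27 and in 274 of all genes (1.01%). The close variant TGACGTGA, which stands in the Hspa5 window printed below, was not searched. The 0 therefore does not show that these promoters lack a UPRE core. No matches overlapped. The ERSE was first defined on promoters of genes of this kind, so its share among them is a description. The sites are shown because the genes that hold them are followed below. Capitals mark the 2 fixed ends of the element, and each is written 5′ to 3′ on the strand that reads CCAAT or, in ERSE-II, ATTGG.
Hspa5 ERSE, chr2:34772025-34772043: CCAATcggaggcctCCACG
Hsp90b1 ERSE, chr10:86705638-86705656: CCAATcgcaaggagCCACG
Hsp90b1 ERSE, chr10:86705533-86705551: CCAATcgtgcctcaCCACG
Pdia6 ERSE, chr12:17266491-17266509: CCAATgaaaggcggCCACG
Calr ERSE, chr8:84847075-84847093: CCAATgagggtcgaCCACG
Canx ERSE, chr11:50325800-50325818: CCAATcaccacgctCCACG
Creld2 ERSE, chr15:88819520-88819538: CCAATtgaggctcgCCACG
Derl3 ERSE, chr10:75893242-75893260: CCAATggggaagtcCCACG
Ero1b ERSE, chr13:12565682-12565700: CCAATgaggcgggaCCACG
Dnajc3 ERSE, chr14:118937827-118937845: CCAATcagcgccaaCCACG
Syvn1 ERSE, chr19:6046532-6046550: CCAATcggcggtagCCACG
Herpud1 ERSE-II, chr8:94386377-94386387: ATTGGgCCACG
The Hspa5, Pdia6, Canx, Dnajc3, Syvn1 and Herpud1 sites and the first Hsp90b1 site read in the direction of the gene, and the others in the opposite direction. They lie in promoters, outside the transcribed part of the gene.

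The whole 250 bases are shown for BiP, the gene by which ER stress is usually followed, and for Ero1b and Sdf2l1, which had the largest differences between genotypes. They are written in the direction of the gene. Capitals mark the ends of the ERSE, which is reverse-complemented in Ero1b. The window of Sdf2l1 holds no exact ERSE or ERSE-II and none of the UPRE letters searched.
Hspa5, chr2:34771840-34772089, plus strand: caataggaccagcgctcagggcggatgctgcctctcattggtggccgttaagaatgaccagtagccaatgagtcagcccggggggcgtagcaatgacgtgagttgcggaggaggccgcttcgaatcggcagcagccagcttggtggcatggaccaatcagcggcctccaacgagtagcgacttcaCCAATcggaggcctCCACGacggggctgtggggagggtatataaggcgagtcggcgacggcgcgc
Ero1b, chr13:12565633-12565882, plus strand: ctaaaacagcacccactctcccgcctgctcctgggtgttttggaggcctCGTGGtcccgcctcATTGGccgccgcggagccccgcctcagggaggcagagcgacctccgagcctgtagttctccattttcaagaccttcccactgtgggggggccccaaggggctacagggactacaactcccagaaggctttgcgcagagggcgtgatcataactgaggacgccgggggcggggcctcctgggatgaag
Sdf2l1, chr16:17132384-17132633, minus strand: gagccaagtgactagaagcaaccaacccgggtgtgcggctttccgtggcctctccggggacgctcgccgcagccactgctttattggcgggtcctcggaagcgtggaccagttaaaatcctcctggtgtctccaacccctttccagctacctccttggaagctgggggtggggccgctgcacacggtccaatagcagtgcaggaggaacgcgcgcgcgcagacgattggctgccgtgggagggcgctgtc

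In unfasted livers, 14 of the 32 genes were called lower in the mutants, 0 higher, and 18 were not called. The 14 were 6 of 11 chaperones and cochaperones, 4 of 6 disulfide enzymes and 4 of 8 ERAD components, and no difference between these roles was tested. Over all genes 7.94% were called in either direction and 3.69% were called lower. The median difference of the 32 genes was −0.30 against 0.01 over all genes, and 28 of 32 were below 0. For 14 genes every mutant array was below every heterozygous array, which held for 5.83% of all genes. Counted over all 5 contrasts, 17 of the 32 genes were called at least once and 15 never. Without unfasted mutant replicate 1 all 14 were still called and the count was 18, the additions being Hspa5, Canx, Dnajc3 and Sel1l, and 3.79% of all genes were called lower. The median of the 32 was then −0.35 against 0.02 over all genes. Without unfasted heterozygous replicate 3 the count was 9.

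**Figure D1:**
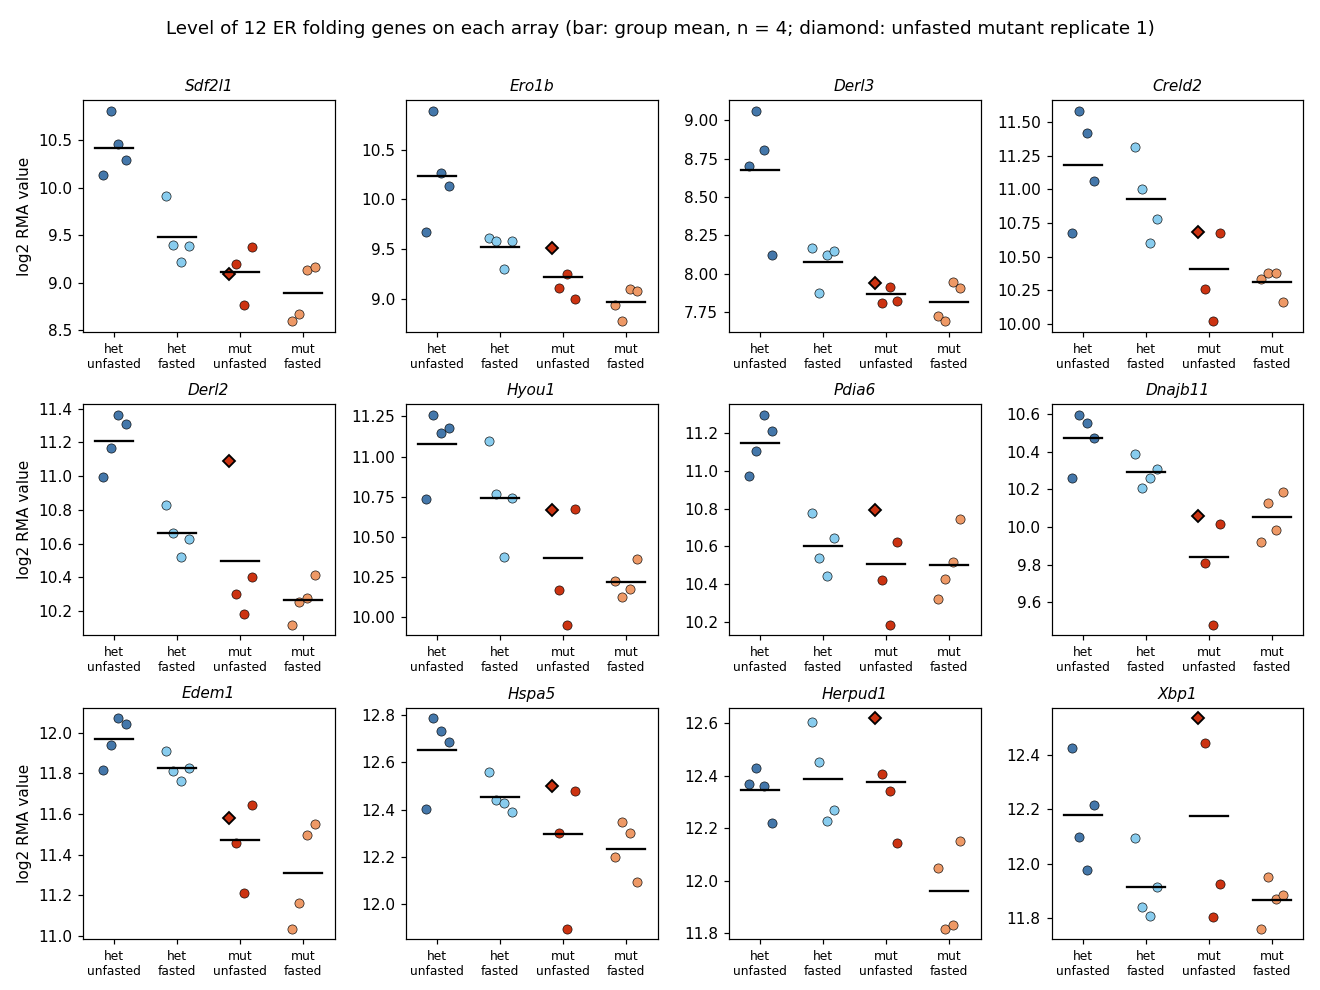
Log2 RMA value of 12 of the ER genes on each of the 16 arrays, by group, with a bar at the mean of the 4 arrays and a diamond for unfasted mutant replicate 1. In Sdf2l1 and Ero1b all unfasted mutant arrays lie below all unfasted heterozygous arrays, and in Derl2 the diamond, at 11.09, lies apart from the other 3 unfasted mutants at 10.18 to 10.40.

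Among the chaperones and cochaperones, 6 of 11 were called lower, with a median difference of −0.36, and 9 of 11 without unfasted mutant replicate 1, with a median of −0.43. The largest difference of all 32 genes was that of Sdf2l1, a partner of the ER chaperone ERdj3. Sdf2l1 (probe set 10438098) read 10.13, 10.81, 10.47 and 10.29 in unfasted heterozygotes and 9.09, 9.20, 8.77 and 9.38 in unfasted mutants. The groups did not overlap, the mutants' highest array lying below the heterozygotes' lowest. The means were 10.43 ± 0.29 (SD, n = 4) and 9.11 ± 0.25 (SD, n = 4), a 2.49-fold lower level (−1.32 ± 0.18, SE, limma adjusted p = 0.00071). The difference without unfasted mutant replicate 1 was −1.31.

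Creld2, an ER-resident protein induced by ER stress, read 10.67, 11.58, 11.41 and 11.06 in unfasted heterozygotes and 10.68, 10.26, 10.02 and 10.67 in unfasted mutants. The lowest heterozygous array, replicate 1, lay just below the highest mutant array, so the groups overlapped. The difference was −0.77 ± 0.19 (SE, limma adjusted p = 0.023), and it was not called without replicate 2 or 3 of either group (adjusted p up to 0.083). With unfasted mutant replicate 1 left out it was −0.86.

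Hyou1, a large Hsp70-type chaperone that serves as exchange factor for BiP, read 10.73, 11.26, 11.15 and 11.18 in unfasted heterozygotes and 10.67, 10.17, 9.95 and 10.67 in unfasted mutants. The groups did not overlap, and the difference was −0.71 ± 0.17 (SE, limma adjusted p = 0.018). Leaving out replicate 2 or 3 of the unfasted mutants, or replicate 3 or 4 of the unfasted heterozygotes, ended the call (up to 0.059).

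Dnajb11, the cochaperone ERdj3, read 10.26, 10.60, 10.56 and 10.47 in unfasted heterozygotes and 10.06, 9.81, 9.48 and 10.02 in unfasted mutants. All mutant arrays were lower, by −0.63 ± 0.11 (SE, limma adjusted p = 0.0038). The Hsp90-type chaperone Hsp90b1 and calreticulin (Calr), which holds glycoproteins during folding, were each lower by −0.31 ± 0.07 (SE; adjusted p = 0.018 and 0.013). The Hsp90b1 call was lost without unfasted heterozygous replicate 3 or 4 (up to 0.063). The differences without unfasted mutant replicate 1 were −0.82 for Hyou1, −0.70 for Dnajb11 and −0.35 for both Hsp90b1 and Calr.

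BiP itself, the chaperone that also holds the sensors inactive, did not pass the test. Hspa5 (probe set 10471586) read 12.40, 12.79, 12.73 and 12.68 in unfasted heterozygotes and 12.50, 12.30, 11.90 and 12.48 in unfasted mutants. Mutant replicate 3 was the lowest array, and replicate 1 of the heterozygotes lay among the mutants. The difference was −0.36 ± 0.11 (SE, limma adjusted p = 0.069), and −0.43 (adjusted p = 0.039) without unfasted mutant replicate 1. Canx, the membrane-bound counterpart of calreticulin, differed by only −0.14 ± 0.05 (adjusted p = 0.071), though all mutant arrays were lower. With unfasted mutant replicate 1 left out it differed by −0.17 (0.045), and the BiP cochaperone Dnajc3 by −0.33 (0.021) against −0.26 (0.081) with it. The stress-induced ER protein Manf (−0.45 ± 0.14, adjusted p = 0.052) and the cochaperone Dnajb9 (−0.25 ± 0.16, adjusted p = 0.39) were not called with or without it (−0.48 and −0.30 without).

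Of the 6 disulfide enzymes, 4 were called lower with and without unfasted mutant replicate 1, with median differences of −0.44 and −0.46. Both Ero1 oxidases pass electrons from disulfide isomerases to oxygen. Ero1b (probe set 10403558) read 9.67, 10.89, 10.26 and 10.13 in unfasted heterozygotes and 9.51, 9.11, 9.25 and 8.998 in unfasted mutants. The heterozygotes spread widely, with replicate 2 highest, yet all mutant arrays were lower. The difference was −1.02 ± 0.19 (SE, limma adjusted p = 0.0042), or 2.03-fold. Ero1a differed by 0.27 ± 0.14 (adjusted p = 0.31) and its groups overlapped.

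Pdia6, an isomerase that also binds the sensor IRE1, read 10.97, 11.11, 11.30 and 11.21 in unfasted heterozygotes and 10.79, 10.42, 10.19 and 10.62 in unfasted mutants. No array of one group reached the other, and the difference was −0.64 ± 0.12 (SE, limma adjusted p = 0.0055). Pdia3, the isomerase that acts with calnexin and calreticulin on glycoproteins, read 12.20, 12.37, 12.34 and 12.30 in unfasted heterozygotes and 11.97, 11.93, 11.64 and 11.91 in unfasted mutants. It differed by −0.44 ± 0.07 (SE, limma adjusted p = 0.0013). Pdia4 was lower by −0.44 ± 0.08 (adjusted p = 0.0051), and P4hb, the founding isomerase, was not called (−0.12 ± 0.07, adjusted p = 0.33). The differences without unfasted mutant replicate 1 were −1.12 for Ero1b, 0.15 for Ero1a, −0.74 for Pdia6, −0.47 for Pdia3, −0.45 for Pdia4 and −0.19 for P4hb.

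ERAD genes gave 4 of 8 called lower, with a median of −0.40, and 5 of 8 without unfasted mutant replicate 1, with a median of −0.44. Derl2 and Derl3 are derlins, membrane proteins through which substrates leave the ER. Derl3 read 8.70, 9.06, 8.81 and 8.12 in unfasted heterozygotes and 7.94, 7.80, 7.91 and 7.82 in unfasted mutants. All mutant arrays lay lower and close together (−0.80 ± 0.14, SE, limma adjusted p = 0.0035). Derl2 read 10.996, 11.17, 11.36 and 11.31 in unfasted heterozygotes and 11.09, 10.30, 10.18 and 10.40 in unfasted mutants. Here mutant replicate 1, the array with acinar transcripts, lay within the heterozygous range and the other 3 far below it. The difference was −0.71 ± 0.15 (SE, limma adjusted p = 0.010), and −0.91 without that array.

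Syvn1, the ubiquitin ligase Hrd1 of ERAD, read 10.21, 10.95, 10.77 and 10.61 in unfasted heterozygotes and 10.05, 9.98, 9.77 and 10.21 in unfasted mutants, where the highest array equalled the lowest heterozygote at 2 decimals. The difference was −0.64 ± 0.15 (SE, limma adjusted p = 0.020), and leaving out replicate 3 of the unfasted mutants, or replicate 2 or 3 of the unfasted heterozygotes, ended the call (up to 0.068). Edem1, a lectin that marks misfolded glycoproteins for disposal, read 11.81, 11.94, 12.07 and 12.04 in unfasted heterozygotes and 11.58, 11.46, 11.21 and 11.64 in unfasted mutants. Its groups did not overlap (−0.49 ± 0.11, SE, limma adjusted p = 0.014), and the call was lost without unfasted heterozygous replicate 3 (0.054). Sel1l, the adaptor of Hrd1, differed by −0.30 ± 0.10 (adjusted p = 0.070, and 0.037 without unfasted mutant replicate 1). Derl1 (0.02 ± 0.09), Herpud1 (0.03 ± 0.11) and Edem2 (−0.29 ± 0.11) were not called. The differences without unfasted mutant replicate 1 were −0.83 for Derl3, −0.65 for Syvn1, −0.53 for Edem1, −0.36 for Sel1l and −0.32 for Edem2, and those of Derl1 (−0.06) and Herpud1 (−0.05) turned in sign; Edem2, Derl1 and Herpud1 were again not called.

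The 3 sensor genes and the 4 translocon genes gave 0 calls each, with medians of −0.0022 and −0.16, and 1 and 2 of them had an unadjusted p under 0.05 in limma. Xbp1 read 12.43, 12.10, 11.98 and 12.22 in unfasted heterozygotes and 12.54, 12.44, 11.80 and 11.92 in unfasted mutants. Ern1 read 10.36, 10.53, 10.32 and 10.46 and 10.86, 10.51, 9.92 and 10.24 in the same order. In both genes mutant replicate 1 was the highest of the 8 arrays and mutant replicate 3 the lowest. Atf6 read 10.79, 10.89, 10.71 and 10.62 in unfasted heterozygotes and 11.25, 10.97, 10.77 and 10.99 in unfasted mutants, which overlapped (0.24 ± 0.10, SE, limma adjusted p = 0.17). The array reads total mRNA, so neither the splicing of Xbp1 nor the cleavage of ATF6 is measured. Sec61a1 (−0.11 ± 0.08), Sec61b (−0.09 ± 0.11), Ssr1 (−0.21 ± 0.09) and Ssr3 (−0.23 ± 0.10) are parts of the channel or of the complex attached to it. Both groups also gave 0 calls without unfasted mutant replicate 1, with medians of −0.12 for the sensors and −0.21 for the translocon. Xbp1 then differed by −0.12, Ern1 by −0.19 and Atf6 by 0.16. Sec61a1 differed by −0.16, Sec61b by −0.15, Ssr1 by −0.25 and Ssr3 by −0.30 without that array.

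**Figure D2:**
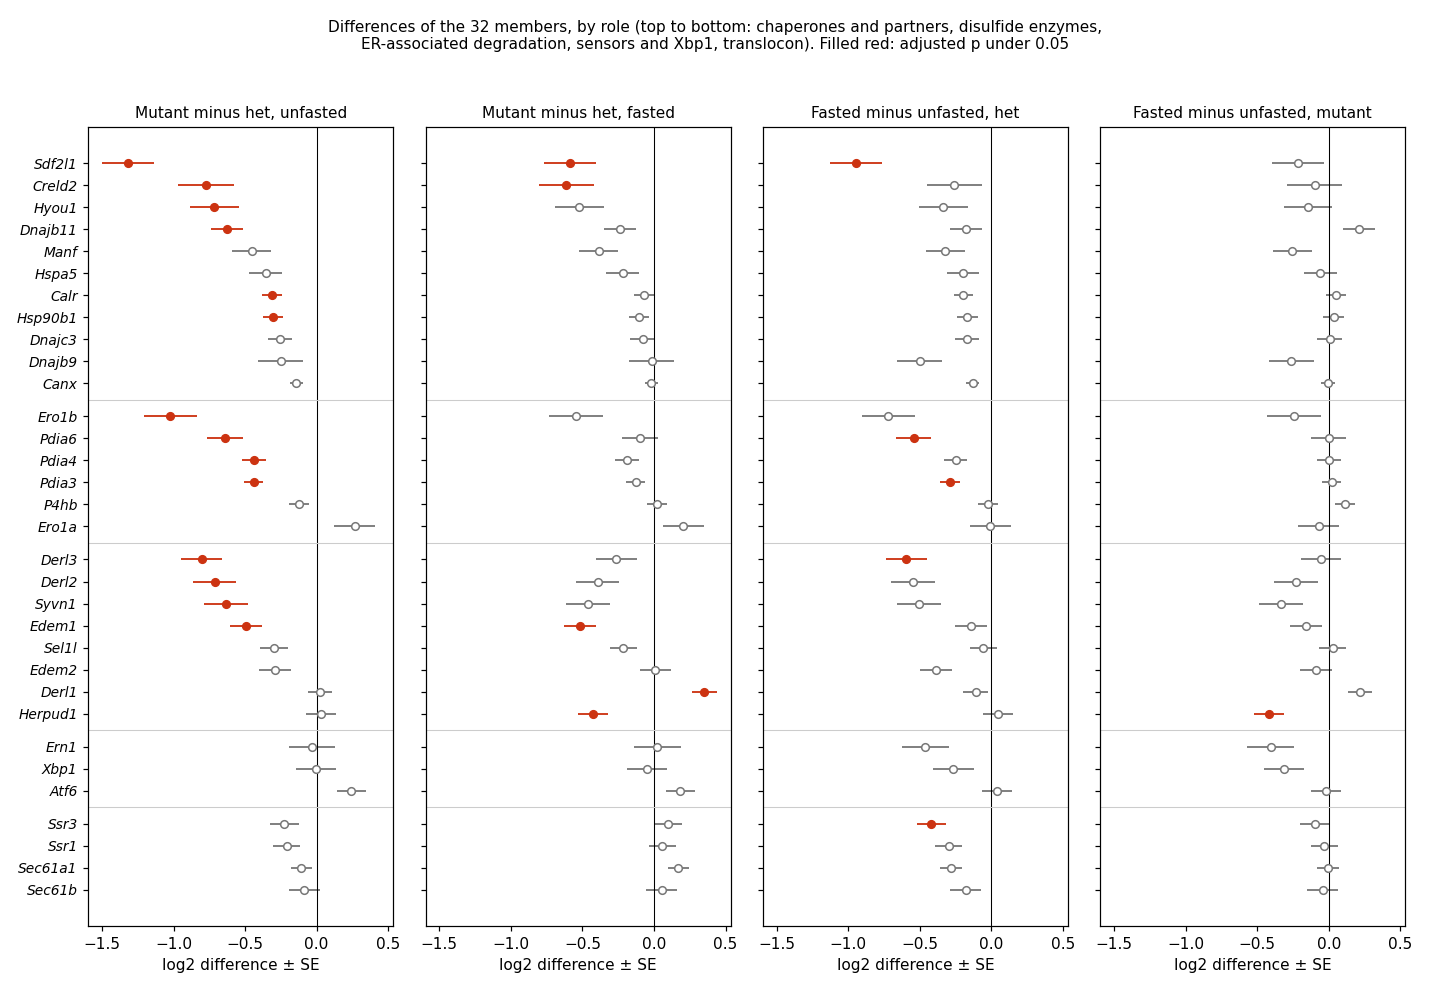
Log2 difference with its standard error for each of the 32 genes in the 4 pairwise comparisons, ordered by role, with filled points for adjusted p under 0.05. In the unfasted genotype comparison 14 points are filled, all below 0, and none of them is a sensor or translocon gene.

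**Figure D3:**
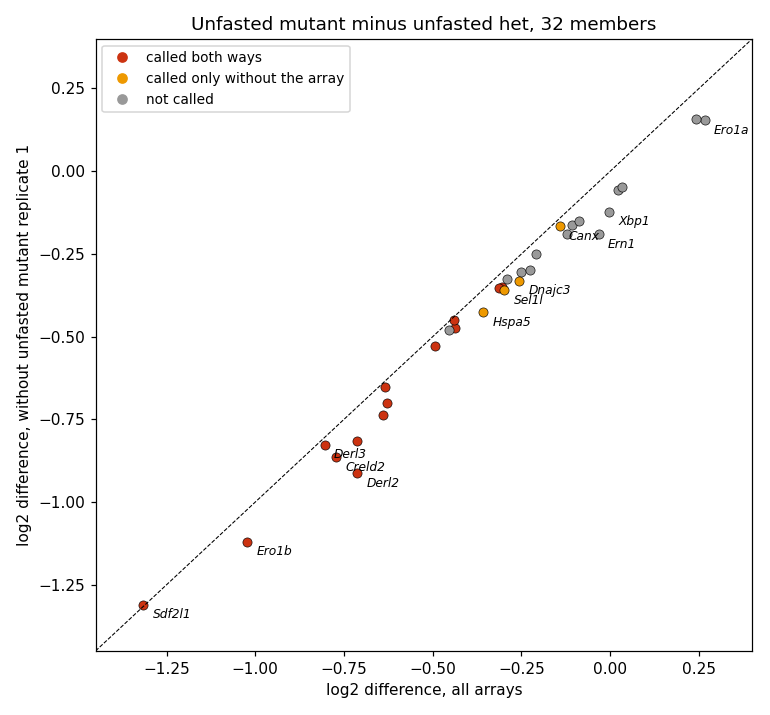
Unfasted log2 difference between genotypes for the 32 genes with all arrays (horizontal axis) and without unfasted mutant replicate 1 (vertical axis), with the line of equality dashed and calls coloured. Orange marks the 4 genes called only without the array, and the median difference was −0.30 with the array and −0.35 without it.

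The 10 genes with an ERSE were all below 0 in the unfasted comparison, with a median of −0.50, and 7 were called lower: Hsp90b1, Pdia6, Calr, Creld2, Derl3, Ero1b and Syvn1. Hspa5, Canx and Dnajc3 joined them without unfasted mutant replicate 1, with a median of −0.54. Of the 17 genes with a promoter but no exact ERSE, 6 were called lower, with a median of −0.25 (7 and −0.30 without that array), among them Sdf2l1, whose promoter is printed above. Over all genes 3.69% were called lower and 7.94% in either direction. Of the 25 other genes in the genome with an ERSE, 10 were on the array. By limma 0 of these 10 were called and 1 had an unadjusted p under 0.05, and their median was 0.00. Their levels were not examined, and with 10 genes 0 calls is near the share of all genes. No difference between these sets was tested.

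**Figure D4:**
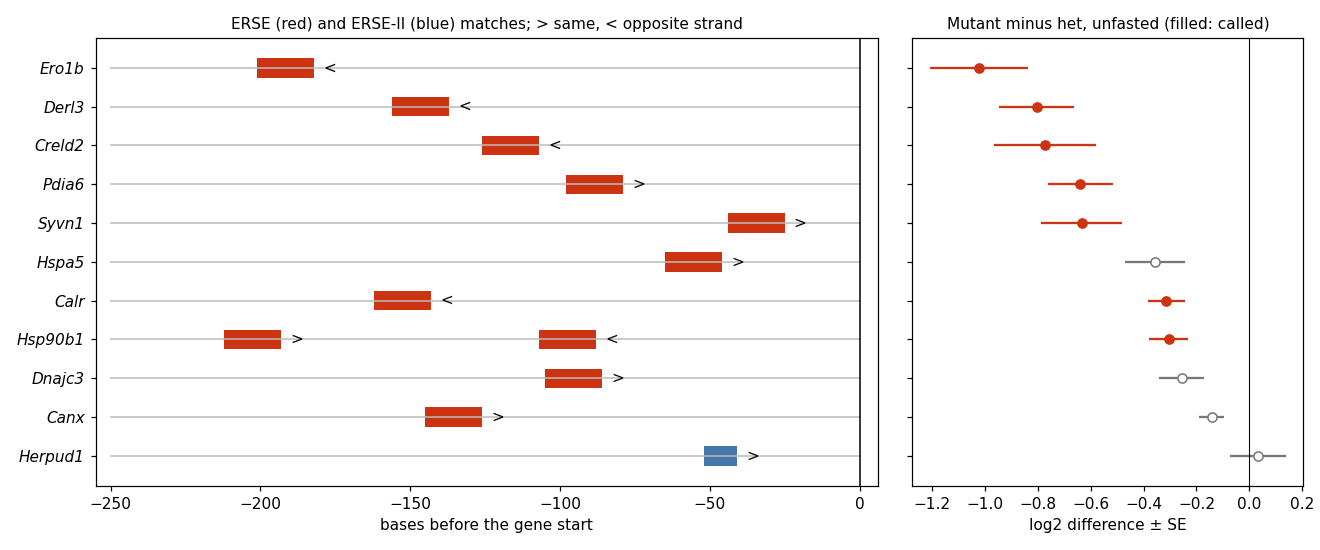
Left, positions of ERSE (red) and ERSE-II (blue) matches in the 250 bases before the gene start, with arrows for the strand. Right, unfasted log2 difference between genotypes with its standard error, filled where called; 7 of the 10 genes with an ERSE are filled and Herpud1, with ERSE-II, is at 0.03.

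In fasted livers 5 of the 32 genes differed between genotypes: 4 were called lower (Creld2, Sdf2l1, Edem1 and Herpud1) and 1 higher (Derl1). Over all genes 13.6% were called, 5.01% lower and 8.62% higher. The count moved with the settings: it was 10 with a fit of only the arrays compared (15.2% of all genes), with array weights (19.3%) or after a second quantile normalization (13.6%), and 8 with median-centred arrays (17.5%). The median was −0.10 against −0.02 over all genes. In 12 genes all mutant arrays were lower, against 11.0% of all genes, and in 1 all were higher, against 12.8%. Without unfasted mutant replicate 1, which enters only through the shared spread, Derl2 and Hyou1 were also called lower, as were 6.20% of all genes.

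Sdf2l1 read 9.91, 9.39, 9.22 and 9.38 in fasted heterozygotes and 8.59, 8.67, 9.13 and 9.17 in fasted mutants, without overlap (−0.59 ± 0.18, SE, limma adjusted p = 0.044). Creld2 read 11.31, 11.004, 10.60 and 10.78 in fasted heterozygotes and 10.33, 10.37, 10.38 and 10.16 in fasted mutants, also without overlap (−0.61 ± 0.19, SE, limma adjusted p = 0.046). Both calls depended on single arrays: that of Sdf2l1 was lost without any of 8 arrays and that of Creld2 without any of 10 (adjusted p up to 0.14 for each). The 8 were replicate 2 of the unfasted mutants, replicates 3 and 4 of the unfasted heterozygotes, replicates 1 and 2 of the fasted mutants and replicates 1, 2 and 4 of the fasted heterozygotes, and Creld2 added replicates 3 and 4 of the fasted mutants.

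Edem1 was the steadiest of the 5, keeping its call without each array in turn. It read 11.91, 11.81, 11.76 and 11.83 in fasted heterozygotes and 11.04, 11.16, 11.50 and 11.55 in fasted mutants (−0.52 ± 0.11, SE, limma adjusted p = 0.0077). Herpud1, a membrane protein that gathers the Hrd1 complex, read 12.61, 12.45, 12.23 and 12.27 in fasted heterozygotes and 12.05, 11.82, 11.83 and 12.15 in fasted mutants, without overlap. The difference was −0.43 ± 0.11 (SE, limma adjusted p = 0.015), and leaving out replicate 2 of the fasted mutants or replicate 1 of the fasted heterozygotes ended the call (up to 0.054). Derl1, the third derlin, went the other way, with 11.37, 11.19, 11.10 and 11.18 in fasted heterozygotes and 11.46, 11.70, 11.47 and 11.61 in fasted mutants. All mutant arrays were higher (0.35 ± 0.09, SE, limma adjusted p = 0.014), and the call was lost without fasted mutant replicate 2 (0.053).

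Several genes called in unfasted livers lay below the heterozygotes in fasted ones without passing the test. Ero1b differed by −0.54 ± 0.19 (SE, limma adjusted p = 0.063), Hyou1 by −0.52 ± 0.17 (0.053) and Syvn1 by −0.46 ± 0.15 (0.059), each with all mutant arrays lower. Hspa5, which was not called in unfasted livers with all arrays, was not called here either (−0.22 ± 0.11, SE, limma adjusted p = 0.21). It read 12.56, 12.44, 12.43 and 12.39 in fasted heterozygotes and 12.20, 12.35, 12.30 and 12.09 in fasted mutants, which did not overlap. Pdia6 (−0.10 ± 0.12) and Calr (−0.07 ± 0.07), both called in unfasted livers, overlapped.

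In heterozygotes, the fast lowered 5 of the 32 genes and raised 0. Over all genes 1.57% were called, 0.838% lower. The median was −0.26 against 0.01 over all genes, and 30 of 32 were below 0. In 11 genes all fasted arrays were lower, against 5.11% of all genes. This comparison shares its unfasted heterozygous arrays with the unfasted genotype comparison.

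Sdf2l1 fell by 0.95 ± 0.18 log2 units (SE, limma adjusted p = 0.015), all fasted arrays being lower, and lost its call without fasted heterozygous replicate 3 (0.055). Pdia6 read 10.77, 10.54, 10.45 and 10.65 in fasted heterozygotes, all below the unfasted arrays given above (−0.54 ± 0.12, SE, limma adjusted p = 0.036). Pdia3 read 12.000, 11.94, 12.05 and 12.06 there (−0.29 ± 0.07, SE, limma adjusted p = 0.041). Ssr3, a subunit of the translocon-associated complex, read 11.54, 11.68, 11.63 and 11.50 in unfasted and 11.23, 11.15, 11.01 and 11.30 in fasted heterozygotes, without overlap (−0.42 ± 0.10, SE, limma adjusted p = 0.047). Derl3 read 8.17, 7.87, 8.12 and 8.15 in fasted heterozygotes and overlapped the unfasted arrays through unfasted replicate 4 (−0.59 ± 0.14, SE, limma adjusted p = 0.047).

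Apart from Sdf2l1, these calls rested on many single arrays. Pdia6 was not called without unfasted replicate 2, 3 or 4 or fasted replicate 2, 3 or 4 of the heterozygotes (up to 0.12). Pdia3 lost its call without any of 9 arrays (up to 0.13), namely unfasted heterozygous replicates 2 to 4, all fasted heterozygotes and fasted mutant replicates 2 and 4. Ssr3 lost it without any of 12 (up to 0.14), namely all 8 heterozygotes, unfasted mutant replicate 2 and fasted mutant replicates 1, 2 and 4. Derl3 lost it without any array but unfasted heterozygous replicate 4 (up to 0.14). Without unfasted mutant replicate 1 the count was again 5, with Derl2 in place of Derl3, and 0.963% of all genes were called lower. Without fasted heterozygous replicate 3 it was 0, with 16 of the genes at an unadjusted p under 0.05 in limma.

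Ero1b (−0.72 ± 0.19, adjusted p = 0.070), Dnajb9 (−0.50 ± 0.16, 0.14), Ern1 (−0.46 ± 0.16, 0.21) and Sec61a1 (−0.28 ± 0.08, 0.079) were not called in fasted heterozygotes. Xbp1 read 12.10, 11.84, 11.81 and 11.91 and Ern1 10.06, 10.03, 9.67 and 10.05 there, Ern1 entirely below the unfasted arrays. Atf6 read 10.88, 10.85, 10.59 and 10.84 and overlapped them.

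In mutants, 1 of the 32 genes was called between fasted and unfasted livers, Herpud1, which was lower. Over all genes 3.35% were called, a share near 1 of 32, and 1.02% were called lower. The median of the 32 was −0.06 against −0.01 over all genes, and without unfasted mutant replicate 1 it turned in sign, to 0.01 against −0.03. Herpud1 read 12.62, 12.41, 12.34 and 12.14 in unfasted mutants and 12.05, 11.82, 11.83 and 12.15 in fasted ones, which overlapped by a single array on each side (−0.41 ± 0.11, SE, limma adjusted p = 0.041). The difference without unfasted mutant replicate 1 was −0.33 (adjusted p = 0.053), and Derl1 was called higher instead (0.30, adjusted p = 0.031) where 9.74% of all genes were called, 5.27% higher. Leaving out replicate 2 or 3 of the unfasted mutants, 1 or 3 of the unfasted heterozygotes, 2 or 3 of the fasted mutants, or 2 or 4 of the fasted heterozygotes ended the Herpud1 call too (up to 0.12).

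The 3 genes with the largest unfasted differences between genotypes were not called here. Sdf2l1 differed by −0.22 ± 0.18 (SE, limma adjusted p = 0.49), Ero1b by −0.24 ± 0.19 (0.45) and Derl3 by −0.05 ± 0.14 (0.85). Syvn1 differed by −0.33 ± 0.15 (0.22), with all fasted arrays lower, Derl2 by −0.23 ± 0.15 (0.38), Pdia3 by 0.02 ± 0.07 (0.87) and Hspa5 by −0.06 ± 0.11 (0.78). Xbp1 read 11.76, 11.95, 11.87 and 11.88 and Ern1 9.82, 10.32, 9.98 and 9.80 in fasted mutants, differences of −0.31 ± 0.14 (0.21) and −0.41 ± 0.16 (0.16) from unfasted mutants. Atf6 read 10.94, 11.19, 10.85 and 10.91 there. The differences without unfasted mutant replicate 1 were −0.14 for Ero1b, −0.03 for Derl2, −0.32 for Syvn1, −0.19 for Xbp1 and −0.25 for Ern1, and Sdf2l1 was again at −0.22. Derl3 was then at −0.03 and Pdia3 at 0.06, and Hspa5 turned in sign, to 0.01.

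No gene of the 32 was called in the test of the interaction, which asks whether the fast acted differently in the 2 genotypes. By limma, 2 of all genes were called (0.0100%). An unadjusted p under 0.05 in limma was found for 11 of the 32, a larger share than the 11.0% of all genes. The median of the 32 was 0.20 against −0.01 over all genes. Of the 32, 5 were below 0, against 10825 of all 19938 genes. Whether the 32 differ from all genes in this was not tested. Without unfasted mutant replicate 1, 0 of the 32 were called by limma and 17 had an unadjusted p under 0.05, against 18.7% of all genes. The median was then 0.26 against −0.03 over all genes. The lowest p was that of Pdia3 (0.31 ± 0.09, SE, limma adjusted p = 0.35), followed by Pdia6 (0.54 ± 0.17, 0.36) and Herpud1 (−0.46 ± 0.15, 0.37). Without that array these were 0.35, 0.64 and −0.38. Calls made in one genotype or one feeding state and not in the other are therefore not shown to differ.

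Set in order of group mean, unfasted heterozygotes were highest for 28 of the 32 genes, against 22.9% of all genes. The lowest group was the fasted mutants for 15, the unfasted mutants for 8, the fasted heterozygotes for 8 and the unfasted heterozygotes for 1, against 37.6%, 21.0%, 19.8% and 21.6% of all genes. Without unfasted mutant replicate 1 the fasted mutants were lowest for 12 and the unfasted mutants for 11. Per array, the median deviation of the 32 genes from the unfasted heterozygous mean was −0.15 to 0.11 in unfasted heterozygotes and −0.35 to −0.09 in fasted ones. It was −0.51 to −0.26 in unfasted mutant replicates 2 to 4, −0.13 in replicate 1, and −0.44 to −0.29 in fasted mutants. Unfasted heterozygous replicate 1 was the lowest of its group at −0.15, with 28 of 32 genes below the group mean.

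**Figure D5:**
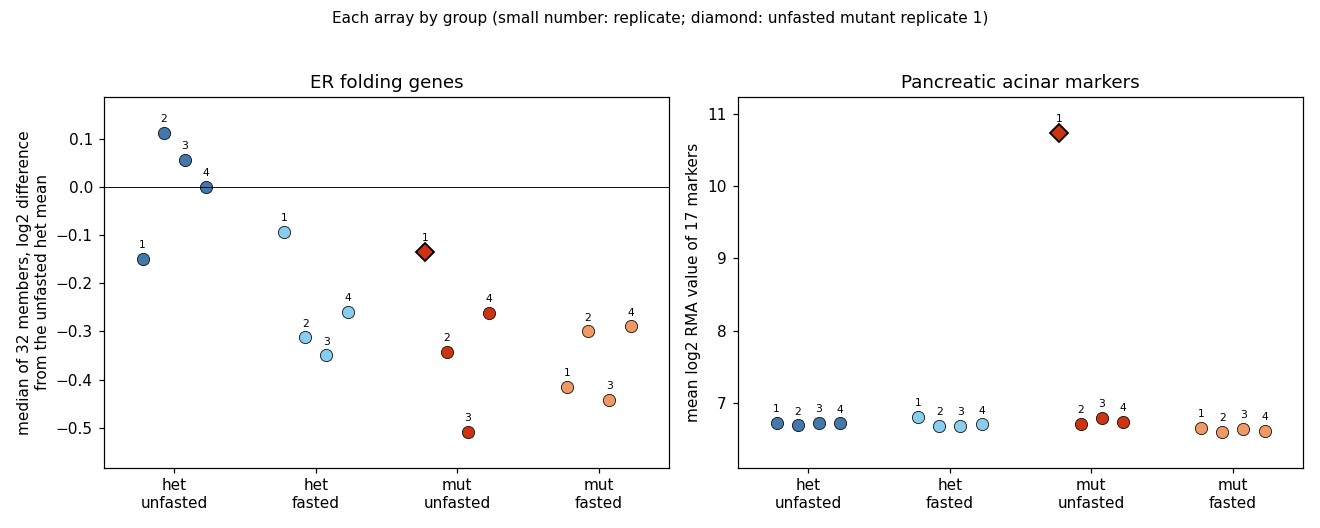
Left, median deviation of the 32 ER genes from the unfasted heterozygous mean on each array (log2 units); right, mean log2 RMA value of the 17 pancreatic acinar markers. Unfasted mutant replicate 1 is at −0.13 with an acinar mean of 10.74, and the other 3 unfasted mutant arrays lie between −0.51 and −0.26.

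Markers of some other cell types differed between genotypes. Hepatocyte markers (10 of 10 measured) averaged 13.01 to 13.14 on all arrays, with 0 called in unfasted livers and 1 lower in fasted ones. In fasted livers they averaged 13.11 to 13.14 in heterozygotes and 13.02 to 13.05 in mutants, without overlap. There 9 of 10 were below 0, with a median of −0.09. In 6 of 10 all fasted mutant arrays were lower, against 11.0% of all genes. Endothelial markers averaged 8.93 to 9.31 in unfasted heterozygotes and 9.47 to 9.78 in unfasted mutants, with 6 of 8 called higher in each feeding state. Stellate cell and fibroblast markers were called higher in 6 of 8 unfasted and 2 of 8 fasted, and macrophage markers in 0 of 10 unfasted and 8 of 10 fasted. In both lists 0 markers were below 0 in either feeding state. The medians were 0.36 unfasted and 0.19 fasted for stellate cells and fibroblasts, and 0.30 and 0.75 for macrophages. Cholangiocyte markers gave 0 calls of 4 unfasted and 1 lower fasted. Over all genes 4.25% were called higher unfasted and 8.62% fasted. Plasma cell markers, of another secretory cell rich in ER, averaged 6.31 to 6.68 on all arrays, with 0 of 6 called unfasted and 1 lower fasted. The part of these cells in the differences above was not tested.

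Other genes of the same pathway were counted from lists by role, against 3.69% of all genes called lower and 4.25% higher in unfasted livers. Among 29 further folding factors in unfasted livers, 4 were called lower and 2 higher, with a median of −0.12; Tmx4, a membrane thioredoxin, was lower by −0.50 ± 0.09 (SE, limma adjusted p = 0.0047) and Dnajc10, a disulfide reductase of ERAD, higher by 0.46 ± 0.11 (0.016). N-glycosylation genes gave 3 of 22 lower, among them Ganab, a subunit of glucosidase II (−0.31 ± 0.06, 0.0095). Further ERAD genes gave 2 of 19 lower. Targeting and translocation genes gave 3 of 18 lower, led by Sec11c of the signal peptidase (−0.61 ± 0.11, 0.0044), and ER export 1 of 23, a share near that of all genes, Lman2 being the gene (−0.37 ± 0.07, 0.0059). The lower counts without unfasted mutant replicate 1 were 6 for folding, 6 for glycosylation, 6 for translocation and 4 for export. The medians of the other 4 lists were −0.18 for glycosylation, −0.13 for ERAD, −0.16 for translocation and −0.08 for export.

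Of 21 further signalling genes of the stress response, 2 were called higher and 0 lower in unfasted livers, with a median of 0.08. Atf5, a transcription factor of the PERK and ATF4 branch, was higher by 0.69 ± 0.14 (SE, limma adjusted p = 0.0062). Trib3, a pseudokinase induced by the same branch, was higher by 0.92 ± 0.25 (0.031), and by 0.75 (0.074) without unfasted mutant replicate 1; 6 arrays ended this call when left out (up to 0.076). In fasted livers 3 were called higher, Nupr1, a stress-induced nuclear protein, by 1.87 ± 0.40 (0.0067), Trib3 by 1.10 ± 0.25 (0.0090) and Atf5 by 0.47 ± 0.14 (0.033, not called without any of 5 arrays, up to 0.091). In the same comparison 4 of 29 folding factors and 4 of 22 glycosylation genes were called higher, for example Calu (0.40 ± 0.08, 0.0043) and Alg8 (0.68 ± 0.10, 0.00058), against 8.62% of all genes. Called lower were 1 glycosylation gene, the ERAD lectin Os9 (−0.40 ± 0.10, 0.015, not called without 1 of the arrays, 0.055) and 1 export gene, Sec24a (−0.17 ± 0.05, 0.045, not called without any of 12 arrays, up to 0.10), against 5.01%.

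With fasting in heterozygotes, 2 of 29 folding factors, 1 of 22 glycosylation genes and 2 of 18 translocation genes were called lower, against 0.838% of all genes. In the other lists 0 genes were called. The largest was Spcs3 of the signal peptidase (−0.51 ± 0.11, SE, limma adjusted p = 0.023), which was not called without any of 6 arrays (up to 0.087). With fasting in mutants, Ufd1 of the ERAD extraction complex was called higher (0.38 ± 0.07, SE, limma adjusted p = 0.010). So were 2 of 23 export genes, Sec23a and Sec16a, and Creb3l3, a liver transcription factor anchored in the ER (0.35 ± 0.07, 0.018). Over all genes 464 of 19938 were called higher. Sec16a was not called without any of 14 arrays (up to 0.12), Sec23a without any of 5 (up to 0.086) and Creb3l3 without 1 (0.050).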

How the data were processed

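The authors deposited 1 table of log2 values per probe set, made with Affymetrix Expression Console and RMA per the submitters' processing notes; versions, genome build and filters are not given in the sources used here. The log2 scale was read from the range of 3.80 to 14.33. The table has no detection calls, and dim probe sets can understate a change. The precision stated here depends on the number of arrays and on the spread between them, which unfasted mutant replicate 1 enters.

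Of 35556 probe sets, 21789 had 1 symbol in the platform annotation, 1621 had several and 12146 were not listed; 21698 of the first matched RefSeq (GRCm38.p6) and 91 kept the annotation's symbol. For 999 genes with several probe sets the brightest was used, which left 19938 genes, with no filter on dim genes. No 2 arrays held identical values. The labels give no batch.

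limma 3.58.1 in R 4.3.3 fitted 1 mean per group to all 16 arrays, with variance moderated along an intensity trend; tests were two-sided and Benjamini-Hochberg adjusted over all genes. The fit was tested on simulated data. The alternatives were other fits, scalings, probe set rules, a brightness filter, a replicate block and leaving out each array. Array values are printed for the called genes with the largest differences (up to 10 in the unfasted genotype comparison and 5 in each other pairwise one) and for Hspa5, Xbp1, Ern1 and Atf6, and up to 3 called genes are named per further list. The 32 genes, lists and rules were chosen with earlier results of these data known. Promoters come from RefSeq; protein sequences were not used here.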

Additional observations from a re-analysis of the deposited data

Results flagged for a closer look

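Across the 32 genes and 4 groups, 128 sets of 4 arrays were examined for a single array far from the others, by Dixon's ratio of the gap to the whole range. The test found 7, and chance gives about 1 in 20. Hsp90b1 was flagged at its lowest array in unfasted heterozygotes (replicate 1, 12.33, the others 12.53 to 12.54) and in fasted mutants (replicate 1, 12.13, the others 12.23 to 12.24). In fasted heterozygotes, replicate 3 was the lowest for Ero1b (9.30, the others 9.59 to 9.61), for Ern1 (9.67, the others 10.03 to 10.06) and for Atf6 (10.59, the others 10.84 to 10.88). Derl3 was lowest on fasted heterozygous replicate 2, at 7.87 against 8.12 to 8.17. Sec61b was highest on fasted mutant replicate 4, at 9.56 against 9.08 to 9.10.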

How the results depend on the processing

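The counts of called ER genes moved as follows, with the share of all genes called at the same setting in parentheses. In unfasted livers the 14 (7.94%) became 9 (3.83%) in a fit of only the arrays compared, and 9 to 18 when each array was left out. In fasted livers the 5 (13.6%) became 10 (15.2%) with only the arrays compared, 10 (19.3%) with array weights, 8 (17.5%) with arrays centred on their median, 10 (13.6%) after a second quantile normalization and 8 (22.5%) among genes above the median brightness, and 1 to 9 with an array left out. With fasting in heterozygotes the 5 (1.57%) became 9 (2.85%) with only the arrays compared, 13 (5.16%) with array weights and 3 (299 genes in all) with median-centred arrays, and 0 to 6 with an array left out. With fasting in mutants the 1 (3.35%) became 0 with only the arrays compared (0.166%) and with median-centred arrays (3.12%), where 2 and 3 genes had an unadjusted p under 0.05 in limma, and 0 to 1 with an array left out. The interaction gave 0 called by limma in each alternative run, with 7 to 17 genes at an unadjusted p under 0.05; it could not be run on only the arrays compared, since it uses all 4 groups. The causes were not tested.

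Of 25 single differences past the threshold, 185 of the values under the alternatives other than leaving out arrays kept the call and 15 did not; with an array left out, 313 kept it and 87 did not. No direction turned. Replicate numbers are shared by the groups, but arrays of the same number correlated at −0.12 to 0.25 (median 0.07, 9 of 24 pairs over 0.1), against a median of −0.03 (9 of 72 over 0.1) for different numbers, and 6 of 16 arrays correlated best with their own number. Not every same-number pair was over 0.1, and the main fit did not pair the arrays. The share over 0.1 was larger for same numbers, and whether arrays of one number share an effect was not tested. With the replicate block the counts were 14 unfasted, 4 fasted (Sdf2l1 and Creld2 lost, Hyou1 gained), 4 with fasting in heterozygotes (Pdia3 and Derl3 lost, Sec61a1 gained), 1 with fasting in mutants and 0 for the interaction.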

Other observations

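Chaperones of the cytosol, which fold proteins outside the ER, were counted for comparison. Of 22 measured, 1 was called lower and 0 higher in unfasted mutants, with a median of −0.09 (−0.20 without unfasted mutant replicate 1). Over all genes 3.69% were called lower, a share near this one, and 4.25% higher. The gene was Bag3, a cochaperone of Hsp70, at −0.45 ± 0.10 (SE, limma adjusted p = 0.011). In fasted mutants 3 were called higher and 1 lower, against 8.62% and 5.01% of all genes, with a median of 0.18. Cct7, a subunit of the cytosolic chaperonin, was higher by 0.42 ± 0.10 (SE, limma adjusted p = 0.014) and Bag3 lower by −0.34 ± 0.10 (0.030). When each array was left out in turn, the fasted Cct7 call was lost without 1 of them (0.053) and the fasted Bag3 call without any of 5 (up to 0.086). With fasting, 0 were called in either genotype by limma, against 1.57% of all genes in heterozygotes and 3.35% in mutants. In heterozygotes 3 and in mutants 7 had an unadjusted p under 0.05 in limma, against 12.3% and 22.2% of all genes.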
